A study of Mus musculus with 41 samples.

Results

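A set of 10 genes that mark the two-cell-like state of mouse embryonic stem cells (ESCs) were followed: Zscan4c, Zscan4d, Zscan4e, Zscan4f, Zfp352, Tmem92, Usp17la, Usp17le, Tcstv1 and Tcstv3. They were chosen by name, with earlier results of these data known. They are 10 of the 51410 genes in the 4 deposited count tables, 1 table for each time point. The study asked how the RNA-binding protein CAPRIN1 affects RNA in differentiating cells. It compared Caprin1 knockout (KO) ESCs, as clones 2 and 4, with wild-type (WT) R1 ESCs. All cells, KO and WT alike, had spent 4 days without LIF and with 1 µM retinoic acid (RA), and were then given 2 µg/ml alpha-amanitin, which blocks RNA polymerase II, for 0, 2, 4 or 8 h. RNA-seq libraries numbered 2 from KO clone 2 and 1 from KO clone 4 at 0 h, against 4 from WT. At 2, 4 and 8 h there were 2 libraries from each clone, against 4 from WT, so that 31 libraries were used in all. The other clone 4 library of 0 h was not analysed here. Each KO line is a clone, so that a difference of 1 clone from WT cannot be told apart from what that clone carried besides the knockout. The labels do not say that replicates came from separate cultures, and p-values then measure only the spread between these libraries, which may be technical. At 0 h, counts of WT replicates 1 and 2 differed by a mean chi-square per gene of 3.36, and 3 and 4 by 2.68. Across these pairs it was 17 to 37.1, and what sets the pairs apart was not tested.

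A few cells in an ESC culture pass at any time through a state that resembles the cleavage-stage mouse embryo at the time its own genome is first transcribed. The transcription factor DUX and the protein pair DPPA2 and DPPA4 are known to open it, and chromatin repressors to close it. The genes switched on there lie largely in clusters of recent duplicates. Zscan4 genes encode SCAN-domain zinc finger proteins that act on telomeres, and Zscan4d is known as the main copy of the 2-cell embryo and Zscan4c as the main copy of ESCs. Usp17l genes encode deubiquitinases, Zfp352 a zinc finger protein of the early embryo, Tmem92 a membrane protein used as a marker of the state, and Tcstv genes small proteins known from telomere lengthening.

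Of the 10 members, 5 had a promoter in the RefSeq table of GRCm38.p6, given here as 250 bases before and 50 after the annotated start. They are shown because the 3 Zscan4 promoters are nearly the same sequence, while those of Zfp352 and Usp17la, which are members too, are not. The Zscan4c window lies at chr7:11005495-11005794 (plus strand), that of Zscan4d at chr7:11166099-11166398 (minus strand), that of Zscan4f at chr7:11397665-11397964 (plus strand), that of Usp17la at chr7:104856766-104857065 (plus strand) and that of Zfp352 at chr4:90218570-90218869 (plus strand). Capitals mark the TATA-box letters TATAAA, the letters TGATT and ATCA with any 2 bases between them, and GACAACACAC, the run of 10 bases most often repeated in the Zfp352 window, each searched on both strands.
Zscan4c: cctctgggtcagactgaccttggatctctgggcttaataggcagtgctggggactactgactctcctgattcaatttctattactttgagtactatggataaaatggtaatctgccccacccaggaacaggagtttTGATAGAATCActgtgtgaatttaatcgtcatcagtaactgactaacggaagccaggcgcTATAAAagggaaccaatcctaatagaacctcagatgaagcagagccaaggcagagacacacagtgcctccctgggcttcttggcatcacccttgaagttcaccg
Zscan4d: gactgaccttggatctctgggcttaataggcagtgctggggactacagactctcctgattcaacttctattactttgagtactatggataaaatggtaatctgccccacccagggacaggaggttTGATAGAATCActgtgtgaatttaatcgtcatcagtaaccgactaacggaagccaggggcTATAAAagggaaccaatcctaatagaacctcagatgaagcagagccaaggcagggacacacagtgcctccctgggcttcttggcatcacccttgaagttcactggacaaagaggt
Zscan4f: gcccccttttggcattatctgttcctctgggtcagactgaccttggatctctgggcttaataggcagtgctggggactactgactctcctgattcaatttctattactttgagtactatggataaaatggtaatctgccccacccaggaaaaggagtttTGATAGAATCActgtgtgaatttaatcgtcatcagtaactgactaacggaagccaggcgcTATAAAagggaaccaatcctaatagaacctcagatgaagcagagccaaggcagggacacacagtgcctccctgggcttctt
Usp17la: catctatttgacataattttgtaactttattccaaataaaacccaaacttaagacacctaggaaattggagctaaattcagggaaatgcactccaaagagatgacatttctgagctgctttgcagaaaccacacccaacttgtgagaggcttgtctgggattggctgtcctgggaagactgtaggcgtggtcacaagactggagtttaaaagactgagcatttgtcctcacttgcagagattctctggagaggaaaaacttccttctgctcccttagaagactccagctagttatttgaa
Zfp352: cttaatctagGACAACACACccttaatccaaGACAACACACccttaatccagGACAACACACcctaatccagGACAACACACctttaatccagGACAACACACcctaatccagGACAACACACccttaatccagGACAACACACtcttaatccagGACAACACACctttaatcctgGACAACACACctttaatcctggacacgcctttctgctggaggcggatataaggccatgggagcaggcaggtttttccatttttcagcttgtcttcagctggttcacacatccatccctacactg
The Zscan4c and Zscan4f windows were 99.3% identical over 277 aligned bases, Zscan4d and Zscan4c 97.2% over 289, and Zscan4d and Zscan4f 97.4% over 266. All 3 held TATAAA and, on the opposite strand, the TGATT and ATCA pair, a sequence of the kind DUX is known to bind. TATAAA stood in 13.6% of the 32851 promoters of the table and the pair in 0.207%, without overlap between them in these windows. In Zscan4c, Zscan4d and Zscan4f the TATAAA began at -54, -65 and -31 and the pair at -114, -125 and -91 from the annotated start. The Usp17la window held none of the letters searched, whereas those of its copies Usp17lb, Usp17lc and Usp17ld each held TATAAA. The Zfp352 window held 9 copies of GACAACACAC, which 0.0517% of promoters hold at least once. These letters were chosen with the sequences known. A match describes the sequence only, and no match says only that the letters are not in this window.

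All 4 Zscan4 genes lie on chromosome 7 in GRCm38.p6 (RefSeq positions), Zscan4c at chr7:11005745-11010547, Zscan4d at chr7:11161643-11166148, Zscan4e, annotated as a pseudogene, at chr7:11306369-11310682 and Zscan4f at chr7:11397915-11402318. Usp17le lies at chr7:104767961-104777470 and Usp17la at chr7:104857016-104862667. Zfp352 lies at chr4:90218820-90225687 and Tmem92 at chr11:94777217-94782703, while Tcstv1 and Tcstv3 lie at chr13:119893387-119894785 and chr13:120316862-120318261. Reads of near-identical copies can be divided between them in ways that depend on the authors' counting, which is not given in the sources used here. The row of a single Zscan4, Usp17l or Tcstv copy is therefore uncertain, and each family is also given as the sum of its members.

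Caprin1 itself was checked first, in CPM, a gene's count scaled to its library's total, with totals adjusted by the trimmed mean of M-values (TMM). At 0 h it stood at 107 and 106 CPM in KO clone 2 and at 1073 CPM in KO clone 4, against 865, 766, 954.9 and 978.8 CPM in WT. The clone 4 library thus lay above every WT library, and clone 4 was not called different from WT at 0 h (log2 0.28, SE 0.14, adjusted p = 0.19, edgeR), while clone 2 was lower (log2 -3.06, SE 0.13, adjusted p = 5.26e-08, edgeR). The libraries labelled KO clone 4 are called so below, and results are given for both clones pooled and for each alone. Libraries held 3460172 to 31565738 counts, and those of 0 h 18855323 to 31565738 in KO and 3953468 to 22684394 in WT. All 8 ESC markers checked (among them Pou5f1, Nanog and Sox2) were at 1 CPM or more in every group. Their summed level at 0 h was 832 to 914 CPM in clone 2 and 621 CPM in clone 4, against 460 to 564 CPM in WT. Mean levels were higher in KO for Pou5f1, Nanog, Zfp42, Tdgf1 and Dppa5a (331 CPM, against 164 CPM in WT). They were lower in KO for Sox2 (62.8 against 72.8 CPM), Esrrb (44.3 against 50.9 CPM) and Utf1 (13.1 against 17.7 CPM). The median log2 difference from WT was 0.61 in clone 2, with calls in both directions. It was 0.34 in clone 4, a single library, where no ESC marker was called. The 8 parietal endoderm markers (among them Gata6, Sox17 and Lama1), all at 1 CPM or more, summed to 34300 to 35200 CPM in clone 2 and 14500 CPM in clone 4, against 8540 to 9820 CPM in WT. For the 10 fibroblast markers, of which 8 to 9 were at 1 CPM or more at 0 h, the sums were 749 to 750 CPM in clone 2 and 2530 CPM in clone 4, against 892 to 1410 CPM in WT. Gene by gene, 7 of these 10 were called higher in clone 2 than in WT, where 22.9% of all genes were, and 2 lower (median log2 0.92). In clone 4, a single library, the median log2 was 2.08. Summed over 4 neuroectoderm markers, the level was 60.4 CPM in both clone 2 libraries and 261 CPM in clone 4, against 238 to 284 CPM in WT. Of these, Sox1 alone had a higher mean in KO (4.6 CPM) than in WT (2.56 CPM). The 4 trophoblast markers summed to 39.5 to 41.1 CPM in clone 2 and 44.5 CPM in clone 4, against 73.7 to 86.4 CPM in WT. Among them, Eomes alone had a higher mean in KO (18.9 CPM) than in WT (8.91 CPM). The part of these differences in the results below was not tested.

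Before alpha-amanitin, at 0 h, the 4 Zscan4 genes, both Usp17l genes, Tmem92, Zfp352 and Tcstv3 were all higher in KO than in WT, by 1.07 to 2.22 on the log2 scale. Of the 10 members, 9 were tested, and all 9 were higher at an adjusted p under 0.05 (edgeR quasi-likelihood test, Benjamini-Hochberg over 15659 genes), where 13.9% of all tested genes were higher. Their median log2 difference was 1.51, against -0.0016 over all tested genes. Zfp352 (0.290 to 0.620 CPM in WT) and Tcstv3 (0 to 0.497 CPM in WT) could enter the test through their KO counts. The count over tested members is therefore a description only. In bulk RNA, more cells holding these transcripts and more of the RNA in each such cell cannot be told apart. Whether the cells that held them were in the two-cell-like state was not tested.

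The Zscan4 sum was 42.5 and 47.5 CPM in KO clone 2 and 30.7 CPM in KO clone 4, against 11.7, 12.5, 18.5 and 14.2 CPM in WT. Every KO library lay above every WT library (log2 difference 1.49, SE 0.20, adjusted p = 0.00327, edgeR). Zscan4d carried the most counts of the family, with 20.6 and 23.4 CPM in clone 2 and 12.7 CPM in clone 4, against 4.52, 6.21, 8.59 and 6.51 CPM in WT (log2 1.51, SE 0.26, adjusted p = 0.00593, edgeR). Zscan4c had 8.85 and 9.73 CPM in clone 2 and 6.59 CPM in clone 4, against 1.90, 2.98, 3.47 and 3.02 CPM in WT. Zscan4f differed by 1.87 on the log2 scale (SE 0.31) with a mean of 6.41 ± 1.56 CPM over the KO libraries (SD, n = 3) and of 1.68 ± 0.67 CPM over those of WT (SD, n = 4). Zscan4e had 5.83 and 6.97 CPM in clone 2 and 6.85 CPM in clone 4, against 4.04, 2.11, 3.83 and 2.87 CPM in WT, a log2 difference of 1.07 (SE 0.24), and its call was lost without clone 2 replicate 2 (adjusted p = 0.0557, edgeR). In none of the 4 copies did the KO and WT libraries overlap. The share of all genes with KO and WT libraries so separated was not computed. Separation, here and below, therefore only describes the genes named.

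Tmem92 had 11.1 and 12.6 CPM in KO clone 2 and 7.35 CPM in KO clone 4, against 2.86, 2.36, 2.38 and 1.78 CPM in WT. Its groups were far apart, with the lowest KO library above the highest WT library (log2 2.17, SE 0.24, adjusted p = 0.00199, edgeR). The Usp17l sum was 7.29 and 7.08 CPM in KO clone 2 and 11.2 CPM in KO clone 4, against 3.81, 3.31, 3.47 and 3.72 CPM in WT. Both clones were above WT here too (log2 1.26, SE 0.21, adjusted p = 0.00568, edgeR), with Usp17la at log2 1.38 (SE 0.27) and Usp17le at 1.17 (SE 0.24). For these deubiquitinase genes the clone 4 library was the highest of all, whereas for Zscan4 and Tmem92 clone 2 was.

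Zfp352, the zinc finger gene, had 2.41 and 2.65 CPM in KO clone 2 but only 0.659 CPM in KO clone 4, against 0.476, 0.290, 0.363 and 0.620 CPM in WT. The clone 4 value, 13 counts, lay just above the highest WT library. The pooled log2 difference was 2.22 (SE 0.52, adjusted p = 0.0165, edgeR), and the call was lost without either clone 2 library, WT replicate 2 or WT replicate 3 (highest adjusted p = 0.0634, edgeR). Tcstv3 had 1.59 and 1.51 CPM in clone 2 and 0.964 CPM in clone 4, against 0, 0.497, 0.484 and 0.387 CPM in WT (log2 1.68, SE 0.40, adjusted p = 0.018, edgeR). Its libraries did not overlap between KO and WT, on 19 to 49 counts in KO and 0 to 12 counts in WT, and the call was lost without either clone 2 library (highest adjusted p = 0.0695, edgeR). Tcstv1 had 0 to 6 counts in every library and was too low to be tested. Summed, both Tcstv genes differed by 1.37 on the log2 scale at 0 h (SE 0.42, adjusted p = 0.0438, edgeR), a call that was lost without either clone 2 library or WT replicate 2, 3 or 4 (highest adjusted p = 0.146, edgeR).

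To set genes beside each other, levels were taken per kilobase of the deposited gene length. How these lengths were defined is not given (4846 bases for Tmem92, 20576 for Caprin1), so that the order of genes is uncertain. On this scale Zscan4d was highest at 0 h, at 8.33 ± 2.45 CPM per kb in KO (SD, n = 3) and 2.85 ± 0.74 in WT (SD, n = 4). Zscan4c came next at 3.69 ± 0.71 CPM per kb in KO and 1.25 ± 0.29 in WT. In the mean over both clones Zscan4f (2.74 ± 0.67), Tmem92 (2.13 ± 0.56), Zscan4e (1.89 ± 0.18), Usp17la (1.52 ± 0.44), Usp17le (1.28 ± 0.35) and Tcstv3 (1.06 ± 0.27) followed, each neighbour in this order within 1 SD of the next. In WT cells the order below Zscan4c was Zscan4e (0.929 ± 0.259), Zscan4f (0.716 ± 0.284), Usp17la (0.598 ± 0.11), Usp17le (0.567 ± 0.063), Tmem92 (0.484 ± 0.091) and Tcstv3 (0.266 ± 0.181). In clone 4 alone, a single library, the order below Zscan4c was Usp17la (2.007), Zscan4e (1.979), Zscan4f (1.97), Usp17le (1.664), Tmem92 (1.517) and Tcstv3 (0.749). Zfp352 was low in both, at 0.485 ± 0.276 CPM per kb in KO and 0.111 ± 0.037 in WT, and Tcstv1 lowest, at 0.0548 ± 0.0338 in KO and 0.0563 ± 0.0488 in WT.

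**Figure D1:**
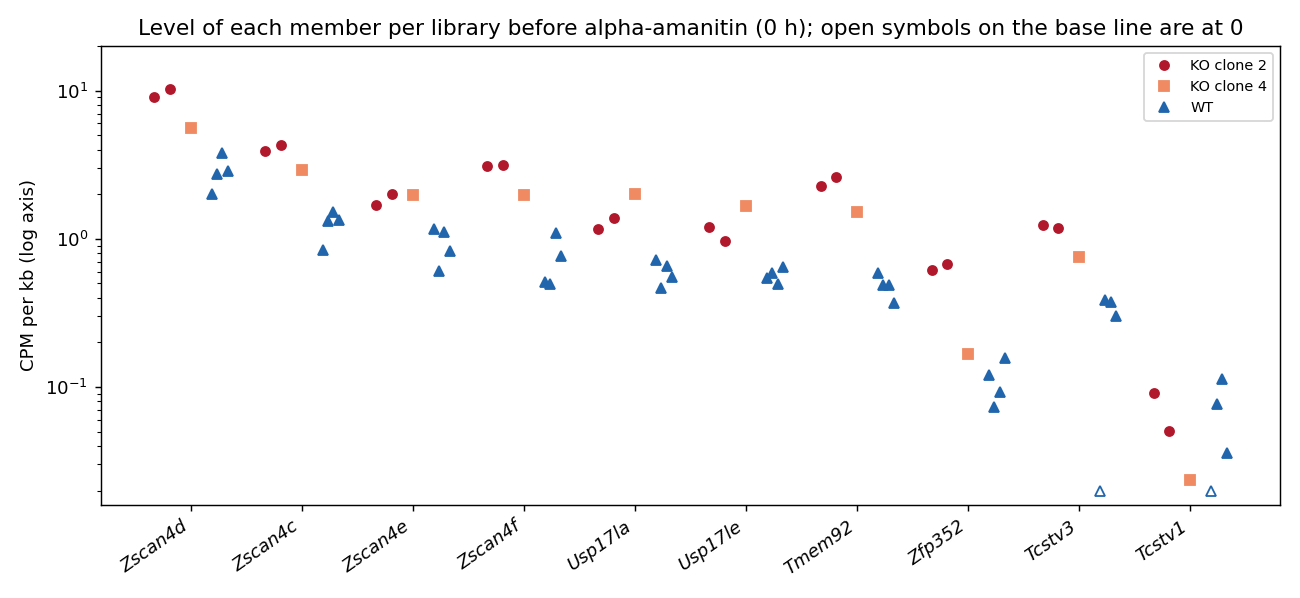
Level of each member per library at 0 h, in CPM per kb on a log axis, with KO clone 2 (circles), KO clone 4 (squares) and WT (triangles); each symbol is 1 library, and open symbols on the base line are at 0. For 9 genes every KO library lies above every WT library, while Tcstv1 overlaps, and Zfp352 in clone 4 (0.168) lies just above the highest WT library. The share of all genes so separated was not computed.

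Both families hold more copies than the members, 9 Zscan4 and 6 Usp17l rows in all, and not every copy passed the test. Zscan4a had 5.86 and 6.00 CPM in KO clone 2 and 7.35 CPM in KO clone 4, against 4.52, 4.47, 5.89 and 5.27 CPM in WT, and overlapped between KO and WT (log2 0.33, SE 0.18, adjusted p = 0.204, edgeR). Zscan4-ps1 (log2 0.19, adjusted p = 0.569, edgeR) and Zscan4b (log2 0.93, adjusted p = 0.0727, edgeR) did not pass either. Zscan4-ps2 (log2 1.5, adjusted p = 0.00349, edgeR) and Zscan4-ps3 (log2 0.72, adjusted p = 0.0378, edgeR) were higher in KO. Of all Zscan4 counts at 0 h, Zscan4a took 9.19% in clone 2 and 14.4% in clone 4, against 19.1% in WT (means over libraries), while Zscan4d took 34.1% in clone 2 and 24.8% in clone 4, against 24.2% in WT. With all 9 rows summed, the family stood at a mean of 60.1 ± 8.21 CPM over the KO libraries (SD, n = 3) and of 26.5 ± 4.69 CPM over those of WT (SD, n = 4), a log2 difference of 1.18 (SE 0.16, adjusted p = 0.00332, edgeR).

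Among the other Usp17l copies, Usp17lc stood apart between clones. It had 7.09 and 6.97 CPM in KO clone 2 and 2.99 CPM in KO clone 4, against 1.19, 1.49, 1.69 and 1.70 CPM in WT. Clone 4 was above WT (log2 0.92, SE 0.24) but below clone 2 (log2 -1.23, SE 0.23, adjusted p = 0.00308, edgeR), the opposite order to Usp17la and Usp17le. Its share of all Usp17l counts at 0 h was 36.2% in clone 2 and 14.3% in clone 4, against 19.8% in WT. Usp17lb (log2 1.02, SE 0.30) and Usp17ld (log2 1.39, SE 0.24) were higher in the pooled KO libraries as well. Over all 6 rows the family reached 19.1 and 19.7 CPM in clone 2 and 20.9 CPM in clone 4, against 6.96 to 8.67 CPM in WT, and the clones were not called different in this sum (clone 4 against clone 2, log2 0.11, SE 0.17, adjusted p = 0.702, edgeR).

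**Figure D2:**
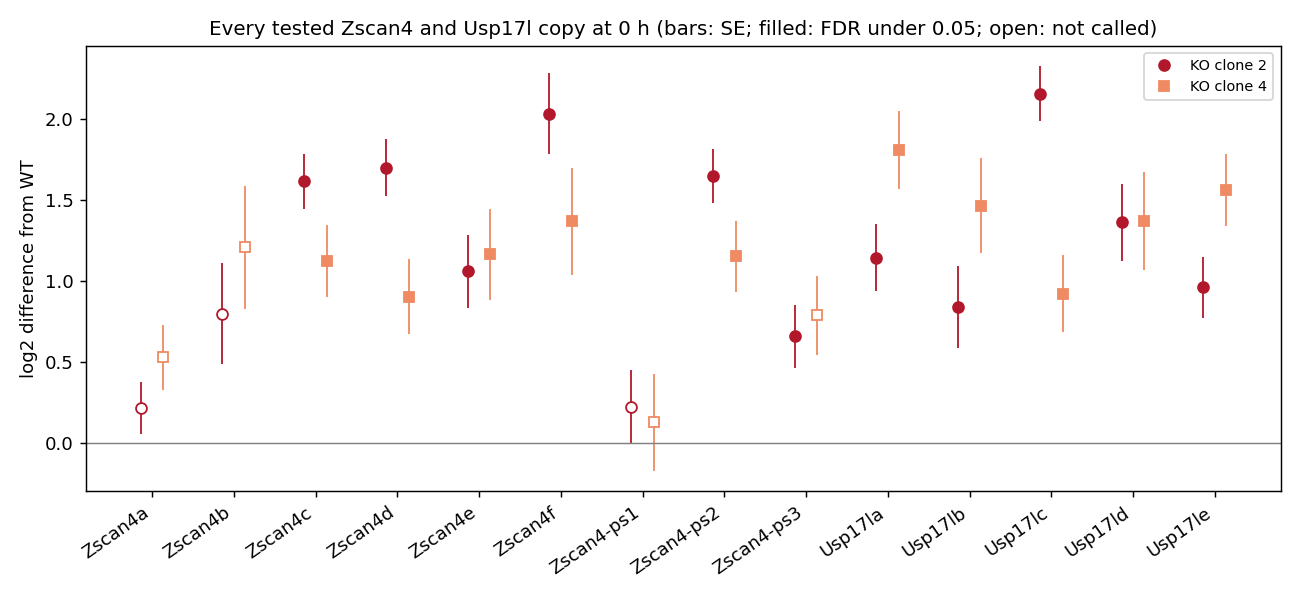
Log2 difference from WT at 0 h of each tested Zscan4 and Usp17l copy in KO clone 2 (circles) and KO clone 4 (squares); bars are standard errors, and filled symbols passed an adjusted p under 0.05. Usp17lc lies at 2.16 in clone 2 and 0.92 in clone 4, while Usp17la lies at 1.14 and 1.81, and Zscan4a, Zscan4b and Zscan4-ps1 are not called in either clone.

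With each clone set against WT by itself, clone 2 was higher than WT at 0 h in all 9 members tested, where 22.9% of all genes were, and clone 4 in 7 of 9, where 9.28% of all genes were. Both comparisons use the same WT libraries, and the fit of 3 groups shares 1 estimate of the spread, with clone 4 a single library at 0 h. Members low in WT could enter these tests, and those of later times, through their KO counts. The counts of members are therefore descriptions only. At the later times clone 2 was higher in 8 of 8 tested members at 2 h (31.8% of all genes), 8 of 8 at 4 h (31.1%) and 8 of 8 at 8 h (31.7%). In clone 4 the counts were 7 of 8 at 2 h (21.7% of all genes), 7 of 8 at 4 h (24.6%) and 4 of 8 at 8 h (20.4%). At 8 h clone 2 was higher in 5 members without its replicate 2, WT replicate 1 or WT replicate 4.

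The clones differed in Zfp352 at 3 of the 4 times. At 2 h it had 2.69 and 2.30 CPM in clone 2 and 0.726 and 0.303 CPM in clone 4, against 0.299, 0, 0.154 and 1.11 CPM in WT. At 8 h it had 3.67 and 2.51 CPM in clone 2 and 1.16 and 0.573 CPM in clone 4, against 1.20, 0.631, 1.00 and 0.436 CPM in WT. Zfp352 was called in clone 2 at all 4 times (log2 2.65, 2.60, 1.61 and 1.92 at 0, 2, 4 and 8 h) and in clone 4 at none (log2 0.73, 0.37, 0.97 and 0.16). The clone 2 call at 4 h was lost without its replicate 1 (adjusted p = 0.0689, edgeR). The clone 2 value at 2 h ranged from 2.18 to 3.93 without each library in turn, the highest without WT replicate 4. Tested directly, clone 4 was lower than clone 2 at 0 h (log2 -1.92, SE 0.39, adjusted p = 0.00445, edgeR), 2 h (-2.24, SE 0.59) and 8 h (-1.76, SE 0.41), but not at 4 h (-0.64, SE 0.47, adjusted p = 0.277, edgeR). At 4 h the clones came close, at 1.92 and 1.53 CPM in clone 2 and 0.716 and 1.63 CPM in clone 4, against 0.759, 0.280, 0.619 and 0.424 CPM in WT.

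For the sum of Usp17la and Usp17le, clone 4 was above clone 2 at every time, by log2 0.63 (SE 0.18), 0.60 (SE 0.18), 0.60 (SE 0.17) and 0.55 (SE 0.18) at 0, 2, 4 and 8 h, with adjusted p from 0.00408 to 0.029 (edgeR). Summing all Usp17l rows took this to 0.11, 0.24, 0.20 and 0.03, none of which passed. Zscan4d was lower in clone 4 than in clone 2 at 0 h (log2 -0.79), 4 h (-0.46) and 8 h (-0.83), and Tmem92 at 0 h (-0.68, SE 0.22, adjusted p = 0.0449, edgeR). Of 9, 8, 8 and 8 members tested between the clones at 0, 2, 4 and 8 h, 3, 2, 2 and 3 differed in either direction, where 23.9%, 48.7%, 47.6% and 58.4% of all genes did. The count fell to 1 at 0 h without either clone 2 library, to 1 at 2 h without clone 2 replicate 1, and at 4 h to 0 without clone 2 replicate 1 and to 1 without any 1 of the other 3 clone libraries. Without a clone 2 library of 0 h the Usp17l sum was not called there (highest adjusted p = 0.161, edgeR). It was also not called at 2 h without clone 4 replicate 1 (adjusted p = 0.0791, edgeR), nor at 8 h without replicate 2 of either clone (highest adjusted p = 0.0781, edgeR).

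**Figure D3:**
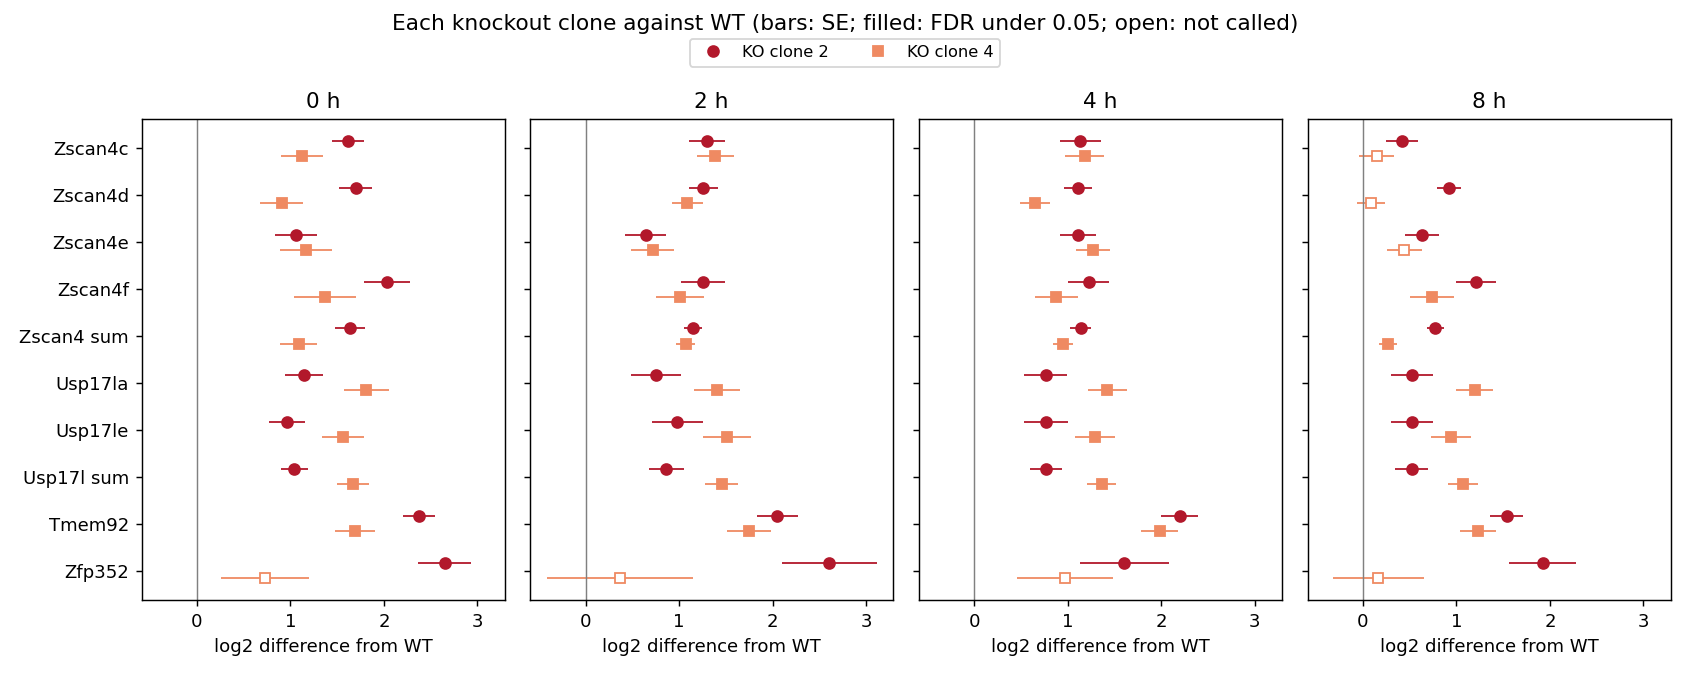
Log2 difference from WT at each time in KO clone 2 (circles) and KO clone 4 (squares), with standard errors; filled symbols passed an adjusted p under 0.05, and each family sum stands below its copies. Zfp352 is filled in clone 2 at every time and open in clone 4, and the Usp17l sum is higher in clone 4 (1.67 at 0 h) than in clone 2 (1.04 at 0 h).

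With both clones pooled, 6 of 7 members tested at 2 h were higher in KO, where 17.0% of all genes were. The counts were 7 of 7 at 4 h, where 19.4% were, and 3 of 8 at 8 h, where 10.3% were. Zfp352 and both Tcstv genes were not tested at 2 h and 4 h, and Zfp352 overlapped between KO and WT at both times. Zscan4e, the member not called at 2 h, overlapped there too. The Zscan4 sum at 2 h was 43.1 and 44.2 CPM in clone 2 and 43.3 and 39.6 CPM in clone 4, against 18.1, 18.1, 21.9 and 20.9 CPM in WT (log2 1.11, SE 0.09). At 4 h it was 41.1 and 40.8 CPM in clone 2 and 31.3 and 40.8 CPM in clone 4, against 18.5, 16.8, 17.7 and 19.7 CPM in WT (log2 1.07, SE 0.11). At both times every KO library lay above every WT library. At 8 h the sum was 36.1 and 43.2 CPM in clone 2 and 27.8 CPM in both clone 4 libraries, against 24.4, 24.9, 24.6 and 20.4 CPM in WT. The groups still did not overlap, but the log2 difference of 0.54 (SE 0.16, adjusted p = 0.0491, edgeR) lost its call without either clone 2 library or any of the 4 WT libraries (highest adjusted p = 0.125, edgeR). Summed over all 9 Zscan4 rows it was 0.31 (SE 0.12, adjusted p = 0.116, edgeR).

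Tmem92 was called higher in the pooled KO libraries at every time. It had 11.9 and 10.6 CPM in clone 2 and 12.1 and 6.21 CPM in clone 4 at 2 h, against 3.29, 2.24, 2.78 and 2.63 CPM in WT. At 8 h the values were 9.57 and 10.4 CPM in clone 2 and 8.66 and 7.34 CPM in clone 4, against 2.80, 4.42, 3.88 and 2.83 CPM in WT. KO and WT libraries were separate at all 4 times, and the pooled log2 difference was 1.90 (SE 0.25) at 2 h, 2.12 (SE 0.17) at 4 h and 1.39 (SE 0.20) at 8 h. At 8 h it was 1 of 3 members called, with Zscan4f (log2 0.99, SE 0.23) and Usp17la (log2 0.89, SE 0.26, adjusted p = 0.0494, edgeR). Tmem92 kept its call without each library in turn, whereas 1 member was called at 8 h without either clone 2 library or any WT library. With KO taken as the mean of its clones, 7 members were called at 8 h, in a fit where 4015 of 14387 genes were higher. Zscan4c (log2 0.28, SE 0.19, adjusted p = 0.323, edgeR) and Zscan4d (log2 0.55, SE 0.25, adjusted p = 0.15, edgeR) overlapped between KO and WT at 8 h.

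The Usp17l sum at 2 h was 8.72 and 8.26 CPM in clone 2 and 13.7 and 12.1 CPM in clone 4, against 4.64, 5.05, 4.93 and 4.15 CPM in WT. At 4 h it stood at 10.1 and 10.3 CPM in clone 2 and 14.4 and 16.3 CPM in clone 4, against 6.32, 6.44, 6.68 and 4.66 CPM in WT. At 8 h it stood at 10.3 and 9.53 CPM in clone 2 and 13.4 and 15.1 CPM in clone 4, against 7.07, 7.70, 9.02 and 4.25 CPM in WT. KO libraries were above WT libraries throughout, and WT replicate 4 was the lowest at 2, 4 and 8 h. The pooled log2 difference was 1.18 (SE 0.20) at 2 h, 1.08 (SE 0.21) at 4 h and 0.81 (SE 0.25, adjusted p = 0.0569, edgeR) at 8 h, which did not pass, whereas the sum of all 6 rows did (0.85, SE 0.14, adjusted p = 0.0091, edgeR). Tcstv3 had 1 to 17 counts in KO and 0 to 8 counts in WT at these times and overlapped at each, and was tested in no pooled comparison after 0 h.

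**Figure D4:**
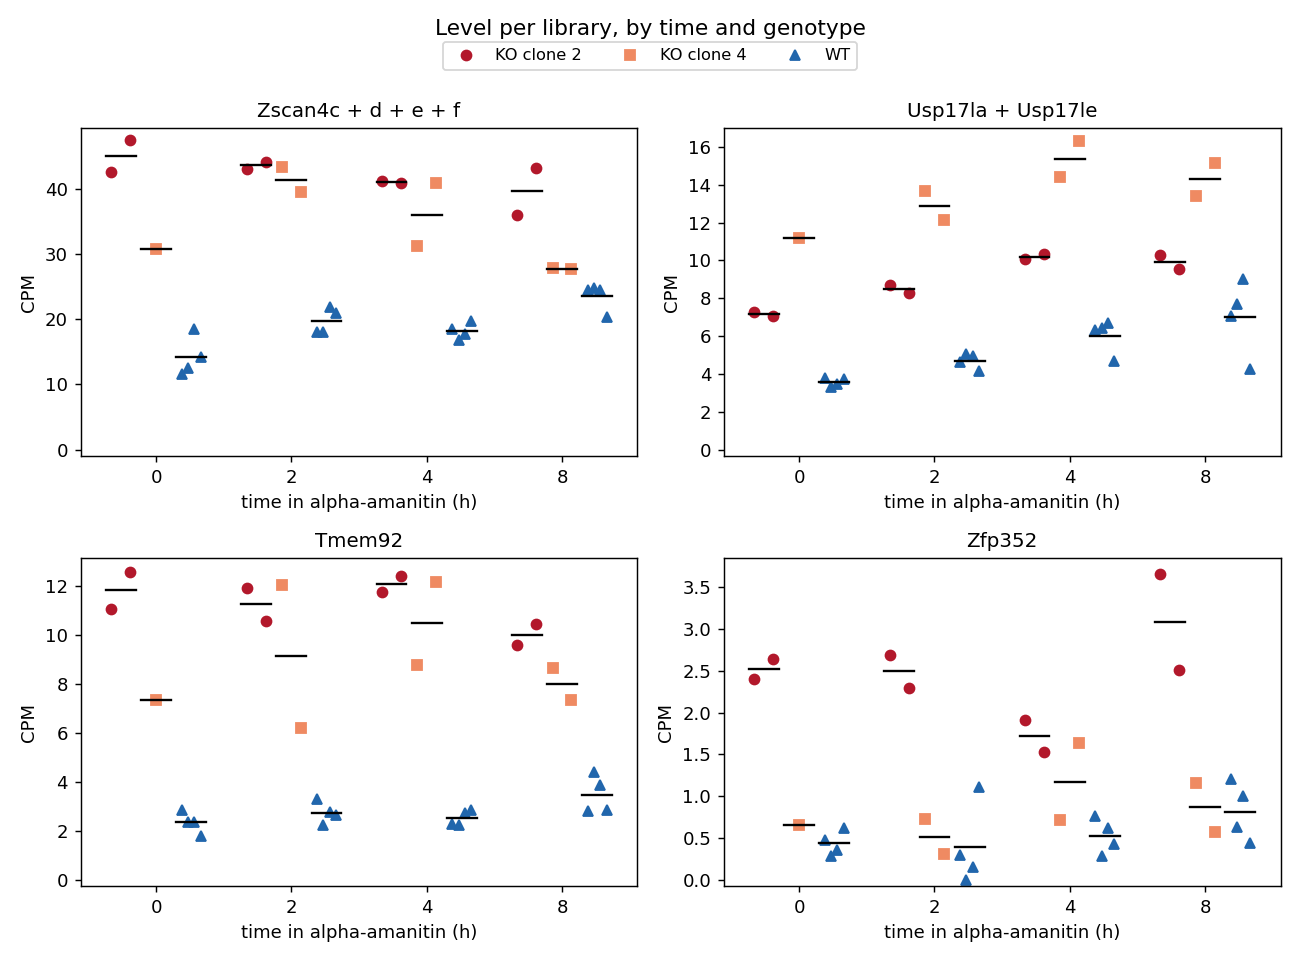
CPM per library of the Zscan4 sum, the Usp17l sum, Tmem92 and Zfp352 at 0, 2, 4 and 8 h of alpha-amanitin in KO clone 2 (circles), KO clone 4 (squares) and WT (triangles); black lines are group means. The Zscan4 sum lies between 27.8 and 47.5 in KO and between 11.7 and 24.9 in WT, and Zfp352 is high in clone 2 alone except at 4 h.

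At 8 h of alpha-amanitin against 0 h, 5 members took a larger share of the WT libraries, and none was called in KO. CPM is a share of each library, and with no spike-in named in the sources used here, a rise says that a transcript took a larger share, not that more of it was made. In WT, 5 of 9 members were higher at 8 h than at 0 h, where 14.8% of all tested genes were, with a median log2 change of 0.69 over the members and 0.009 over all genes. Zscan4c rose by log2 1.13 (SE 0.19, adjusted p = 6.02e-05, edgeR), Usp17la by 1.07 (SE 0.27), Usp17le by 0.90 (SE 0.25), Zscan4e by 0.69 (SE 0.20) and Tmem92 by 0.60 (SE 0.22, adjusted p = 0.0425, edgeR). The Zscan4 sum averaged 23.6 ± 2.13 CPM at 8 h and 14.2 ± 3.04 CPM at 0 h in WT (SD, n = 4 each), without overlap (log2 0.71, SE 0.15, adjusted p = 0.000773, edgeR). The Usp17l sum averaged 7.01 ± 2.01 CPM at 8 h and 3.58 ± 0.23 CPM at 0 h in WT, also without overlap (log2 0.98, SE 0.23, adjusted p = 0.00174, edgeR). Without WT 0 h replicate 2 Zscan4e (adjusted p = 0.0729, edgeR) and Tmem92 lost their calls, so that 3 members were called. Tmem92 also lost its call without WT 0 h replicate 3 or 4, WT 8 h replicate 2 or 3, or KO clone 2 replicate 1 of 8 h (highest adjusted p = 0.159, edgeR).

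In KO, 0 of 9 members were called at 8 h against 0 h by edgeR, where 15.5% of all genes were called in either direction. By edgeR 1 member had an unadjusted p under 0.05 and DESeq2 called 0. Without the single clone 4 library of 0 h, 2 members were called. The Zscan4 sum averaged 33.7 ± 7.45 CPM at 8 h (SD, n = 4) and 40.3 ± 8.61 CPM at 0 h (SD, n = 3) in KO, a log2 change of -0.26 (SE 0.15, adjusted p = 0.286, edgeR). The Usp17l sum averaged 12.1 ± 2.64 CPM at 8 h and 8.51 ± 2.30 CPM at 0 h (log2 0.51, SE 0.22, adjusted p = 0.125, edgeR). Within clone 2 alone the Zscan4 sum changed by -0.18 (SE 0.13) and the Usp17l sum by 0.46 (SE 0.17, adjusted p = 0.0465, edgeR), and within clone 4 by -0.15 (SE 0.16) and 0.35 (SE 0.19). The clone 2 call of the Usp17l sum was lost without any 1 of 7 libraries, namely all 4 of clone 2, clone 4 replicate 1 of 8 h and WT replicates 1 and 2 of 8 h (highest adjusted p = 0.214, edgeR). Over all 6 Usp17l rows the change was 0.24 (adjusted p = 0.209, edgeR). No single member was called in either clone by edgeR or by DESeq2 (1 in clone 2 and 0 in clone 4 had an unadjusted p under 0.05), where 28.4% of all genes were called in clone 2 and 19.5% in clone 4.

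The difference between the KO and the WT change at 8 h was negative for all 9 members, with a median log2 of -0.80, against -0.0011 over all tested genes. Of these 0 passed by edgeR (4 had an unadjusted p under 0.05, and DESeq2 called 1), where 0.0134% of all genes, 2 of 14944, did. Zscan4c had the lowest adjusted p (log2 -1.24, SE 0.26, adjusted p = 0.0813, edgeR), and the Zscan4 sum came to -0.97 (SE 0.21, adjusted p = 0.0969, edgeR). It passed over all 9 Zscan4 rows (-0.88, SE 0.17, adjusted p = 0.0488, edgeR), and in a fit with clones and times as 12 groups, chosen after seeing the data (-0.84, SE 0.15, adjusted p = 0.000543, edgeR), where 1269 of 15850 genes passed. Without clone 2 replicate 2 of 8 h, or without the clone 4 library of 0 h, 1 member passed. These comparisons share the 0 h libraries with those of KO against WT at 0 h.

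At 2 h against 0 h none of the 9 was called in WT, where 11.5% of all genes were (3 had an unadjusted p under 0.05, DESeq2 called 0), and none in KO, where 5.23% of all genes were (0 unadjusted, DESeq2 called 0). The Zscan4 sum was higher in WT at 2 h (log2 0.46, SE 0.15, adjusted p = 0.0478, edgeR). At 4 h Usp17la was higher in KO (log2 0.72, SE 0.25, adjusted p = 0.0299, edgeR) and, with Zscan4f (0.79, SE 0.28), in WT (0.98, SE 0.28), where 15.2% of all genes in KO and 15.8% in WT were higher. At 2 h and 4 h the change was called lower in KO than in WT for 0 members by edgeR and by DESeq2, and for 0 at an unadjusted p under 0.05, where 0.0335% and 0.0803% of all genes were lower.

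**Figure D5:**
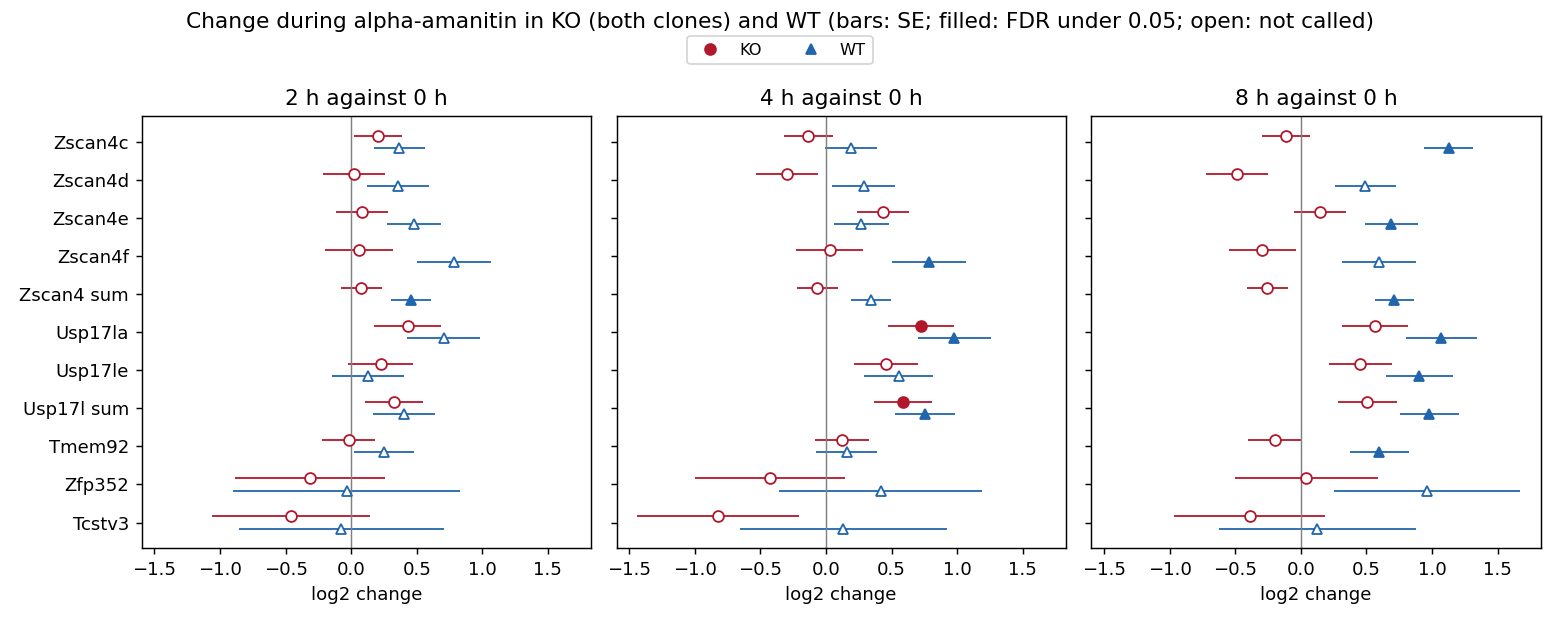
Log2 change from 0 h to 2, 4 and 8 h in KO (circles, both clones) and WT (triangles), with standard errors; filled symbols passed an adjusted p under 0.05. At 8 h the WT symbols lie at 0.49 to 1.13 for the Zscan4 copies, while the KO symbols lie at -0.48 to 0.14.

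Of a list of 38 other genes known from the two-cell-like state, 36 were in the tables, 21 were tested at 0 h, and 15 of these were higher in KO, where 13.9% of all tested genes were, and 0 lower (median log2 1.39). The list was chosen with earlier results of these data known. It includes the other Zscan4 and Usp17l copies given above, which may share reads with the members. Zscan4-ps2, Zscan4-ps3, Usp17lb and Usp17ld are among those higher at 0 h. The counts of the list, here and at later times, are therefore not independent of the members. Rows low in WT could also enter the test through their KO counts, so that the count over tested genes is a description only. B020004J07Rik had 2.31, 1.89 and 1.12 CPM in KO, against 0, 0.248, 0.484 and 0.387 CPM in WT. Pramel7, which promotes loss of the DNA methylation factor UHRF1, had 8.75 and 10.97 CPM in KO clone 2 and 3.14 CPM in KO clone 4, against 0.238, 0.290, 0.726 and 0.697 CPM in WT (log2 3.84, SE 0.51, adjusted p = 0.00313, edgeR). Arg2, a mitochondrial arginase (log2 1.57, SE 0.29), Pramef25 (1.76, SE 0.34), B020004J07Rik (2.38, SE 0.44), Gm8300 (1.44, SE 0.27), Gm2016 (1.26, SE 0.38) and Gm5662 (1.11, SE 0.23) were higher in KO. Gm2022 (log2 1.00, adjusted p = 0.0507, edgeR) and Ddit4l (-0.62, adjusted p = 0.0571, edgeR) did not pass. Clone 2 alone was higher in 17 of 22 tested (22.9% of all genes) and lower in 1, Ddit4l (log2 -0.93, SE 0.12), and clone 4 alone was higher in 9 of 22 (9.28% of all genes). The counts higher in KO were 9 of 15 tested at 2 h (17.0% of all genes), 7 of 13 at 4 h (19.4%) and 4 of 17 at 8 h (10.3%), with 0 lower at each. In WT 9 of 20 were higher at 8 h than at 0 h (14.8% of all genes) and 0 lower, with a median log2 of 0.69, and in KO 0 of 20 were called (15.5% of all genes in either direction; median -0.03). Duxf3, the row of the DUX gene, held 45 counts over all 31 libraries and was not tested.

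Among 5 activators of the state, 0 were higher in KO at 0 h, where 13.9% of all genes were, and 1 was lower. This was Trp53, the p53 gene, at a mean of 120 ± 25.6 CPM over the KO libraries (SD, n = 3) and of 195 ± 18.4 CPM over those of WT (SD, n = 4, log2 -0.70, SE 0.16, adjusted p = 0.0139, edgeR). With RLE size factors, another scaling of library totals, edgeR called 1864 of 15659 genes lower in the same comparison. Set against WT alone, clone 2 was higher in some of the 5 and lower in others (median log2 0.24). In clone 4, a single library, the median log2 of the 5 was 0.06, and Trp53 at -0.37 (SE 0.14) was not called lower. Of 17 repressors, 2 were higher, where 13.9% of all genes were, and 2 lower, where 1864 of 15659 genes were with RLE size factors. Their median log2 was 0.04, and no shift of the repressors as a set is read from these counts. Dnmt1, the maintenance DNA methyltransferase (log2 -0.51, SE 0.13), and Kdm1a, a histone demethylase (-0.39, SE 0.09), were lower in the pooled KO libraries. The median log2 of the 17 was -0.02 in clone 2 alone. It was -0.02 in clone 4 alone too, a single library, where Dnmt1 at -0.30 and Kdm1a at -0.36 were not called lower. Max (log2 0.50, SE 0.09) and Rybp (0.44, SE 0.12), parts of Polycomb complexes, were higher. None of the 10 members stood in either of the authors' deposited lists of gene symbols, named for CNT against RA (2171 symbols) and 2I against RA (2503 symbols); the lists carry no values, and how they were made is not given in the sources used here.

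Over the 31 libraries, the genes whose log2 CPM followed the Zscan4 sum most closely, of 12924 with a mean of at least 1 CPM, were M6pr (Pearson r 0.957), Asah1 (0.949) and Arl1 (0.948). Among those closest to Zfp352 were Qsox2 (0.916) and B4galt1 (0.894), and among those closest to the Usp17l sum Il1rl1 (0.941) and Gsto1 (0.935). Among the members themselves, the Zscan4 sum followed Tmem92 (r 0.928) more closely than the Usp17l sum (0.749) or Zfp352 (0.729), and the Usp17l sum and Zfp352 were least alike (0.415). The libraries share genotype, clone and time, so that these values describe the sets of libraries and are not tests.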

How the data were processed

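RNA-seq counts per gene in 31 libraries were taken as the authors deposited them, 1 table for each time, with whole-number counts and gene lengths in bases, per the file headers. Libraries were made with a stranded mRNA kit, per the labels' protocols. The submitters' processing notes name the aligners STAR 2.4.0.1 and TopHat, then Cufflinks, Cuffdiff and DESeq2, FastQC 0.11.9, and the builds GRCm38 and mm10. Neither the counting program nor its strand setting is given in the sources used here. The 110 repeated lines of each table, identical to their first occurrence, were dropped.

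Tests used edgeR 4.0.16 (TMM, filterByExpr, quasi-likelihood F test, robust) in R 4.3.3, with p-values adjusted over all tested genes and called under 0.05. KO and WT were compared within each time, clones and WT as 3 groups within each time, and changes over time in 8 genotype-by-time groups (within clones, 12 groups). Family sums replaced the rows of a family in the same fits. Levels are CPM on effective library sizes of all libraries, and levels between genes are per kb of the deposited length. SDs are between libraries. The fits of 3 comparisons (KO against WT at 0 h, clone 2 against WT at 8 h, WT at 8 h against 0 h) were tested on simulated data. Alternatives were DESeq2 1.42.0, other scaling, no low-count filter, a replicate block, other groupings, all rows of a family and leaving out each library. Named genes were the 10 members, Caprin1, other two-cell-like genes with a mean of at least 1 CPM, called regulators and the 3 genes most like each of 3 targets. Likeness used log2(CPM + 1), and 2 of these genes are not reported here. Promoters came from RefSeq and were aligned with Biopython. The members and lists were chosen with earlier results of these data known. The depth of each library sets its precision, and counting error in rows of few counts is large.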

Additional observations from a re-analysis of the deposited data

Results flagged for a closer look

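Of 52 sets of 4 WT libraries, 4 held a library far from the others, where chance gives about 1 in 20. At 8 h, WT replicate 2 had 7.825 CPM of Zscan4c against 5.99 to 6.14 CPM in the other WT libraries. Zscan4f stood at 4.911 CPM in WT replicate 2 at 2 h against 2.31 to 2.49 CPM in the others, and at 1.852 CPM in WT replicate 4 at 8 h against 2.88 to 3.07 CPM. The Zscan4 sum was 20.37 CPM in WT replicate 4 at 8 h against 24.4 to 24.9 CPM.

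Clone 4 differed from clone 2 in the following members and sums (log2). For Zscan4d the difference was -0.7943 before the drug, then -0.4605 at 4 h and -0.8325 at 8 h. Zfp352 lay at -1.922, -2.2398 and -1.7582 in the comparisons of 0, 2 and 8 h, and Tmem92 at -0.6822 in that of 0 h. Usp17la was higher in clone 4, by 0.6512, 0.6597 and 0.6715 in those of 2, 4 and 8 h, as was the Usp17l sum, by 0.6316, 0.5969, 0.5969 and 0.5452 at 0, 2, 4 and 8 h. The Zscan4 sum differed by -0.5024 at 8 h. Clone 2 also had less Caprin1, a higher summed level of parietal endoderm markers and a lower one of fibroblast markers than clone 4, and their part in these differences was not tested.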

How the results depend on the processing

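With RLE size factors none of the 181 values of single members and sums changed side or direction. DESeq2 gave 18 weaker and 4 stronger calls, and no low-count filter 8 weaker and 2 stronger. With the replicate number as a block, 0 members were called in KO against WT at 0, 2, 4 and 8 h (8, 7, 6 and 2 had an unadjusted p under 0.05), where 0, 2, 0 and 0 of all genes were, and Zfp352 in KO at 8 h against 0 h came to -0.0264. Whether equal numbers mark paired libraries is not known. Of 20 same-time pairs 1 correlated above 0.1 (range -0.192 to 0.130). Across times within a clone or WT, 6 of 42 did (range -0.1 to 0.387). Between groups of 2 libraries both numbers give the same correlation, so that these pairs are not independent. Of 48 WT comparisons 6 matched best by number. These values cannot settle the pairing, and no direction of effect is read from the lost calls. Taking KO as the mean of its clones gave 7 members at 8 h (3 pooled), and in 12 groups, a fit chosen after seeing the data, 2 in the difference of the changes at 8 h. DESeq2 called 5 in clone 2 against WT at 8 h, 1 and 0 between clones at 2 h and 4 h (2 unadjusted at 4 h) and 1 in the difference of the changes. WT libraries alone gave 1 at 2 h, KO libraries alone 0 at 4 h, and no filter 1 in WT and 0 in KO at 4 h. With all rows of a family, the Zscan4 sum of clone 4 against clone 2 turned to 0.0744 at 2 h and 0.0853 at 4 h, 7 calls of sums weakened and 2 strengthened. The cause of these shifts was not tested.

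Without each library in turn, members called ranged, at 0, 2, 4 and 8 h, from 6 to 9, 6 to 7, 7 to 8 and 1 to 4 in KO against WT, from 8 to 9, 7 to 9, 6 to 8 and 5 to 9 in clone 2 against WT, from 7 to 7, 6 to 7, 6 to 7 and 3 to 5 in clone 4 against WT, and from 1 to 4, 1 to 3, 0 to 3 and 2 to 4 between clones. At 8 h against 0 h they ranged from 3 to 5 in WT, 0 to 2 in KO, 0 to 0 within each clone and 0 to 1 in the difference of the changes (1 without clone 2 replicate 2 of 8 h or clone 4 of 0 h). Values that crossed zero ranged from -0.38 to 1.70 (Zfp352, clone 4 against WT, 2 h), -0.45 to 0.56 (8 h), -0.0884 to 0.23 (Zscan4d, 8 h), -0.38 to 0.0092 (Zscan4d, clone 4 against clone 2, 2 h), -0.87 to 0.0942 and -0.44 to 0.0276 (Tmem92, 2 h and 4 h), -0.37 to 0.0095 (Zscan4 sum, 4 h), -0.29 to 0.0024 (Zscan4c, KO 8 h against 0 h) and -0.41 to 0.34 (Zfp352). Depth limits Tcstv1, Tcstv3 and Zfp352, which had few counts after 0 h.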
